A study of Homo sapiens with 4 samples.

Results

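The G1 cyclins and their kinases are 10 genes that carry a cell through the G1 phase and into S phase: CCND1, CCND2, CCND3, CCNE1, CCNE2, CDK2, CDK4, CDK6, CDKN1B and CDKN2C. They were picked by gene name among the 60651 genes of the deposited transcript tables, with earlier results of these data known. All 10 were listed in each of the 4 libraries, each with 1 gene identifier and 3 to 23 annotated transcripts. CCNE1 was listed at 0 in the library labelled MOLM13. All 10 were among the 19872 nuclear protein-coding genes against which they are read below.

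In mammalian cells a D cyclin (CCND1, CCND2 or CCND3) binds CDK4 or CDK6, and the complex begins to phosphorylate the retinoblastoma protein RB1. Phosphorylation frees E2F factors, which transcribe the E cyclins (CCNE1, CCNE2), and these bind CDK2 and complete the phosphorylation of RB1. CDKN2C, the protein p18INK4c, binds CDK4 and CDK6 and keeps D cyclins off them, whereas CDKN1B, the protein p27Kip1, binds cyclin-CDK complexes and inhibits CDK2. In blood cells the 3 D cyclins partly replace one another, and CDK6 is the kinase best known for a role in leukemia.

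Ribosome-protected RNA fragments (footprints) were sequenced from 4 human leukemia lines, namely K562, THP-1, MOLM13 and HL60, each with 1 library. The labels give no treatment, and cycloheximide was in the lysis buffer of every line. K562 and HL60 were grown in IMDM, THP-1 in RPMI1640 with 2-mercaptoethanol and MOLM13 in DMEM. Except between K562 and HL60, the line and its medium cannot be told apart. K562 comes from chronic myeloid leukemia in blast crisis, THP-1 and MOLM13 from acute monocytic leukemia with a rearranged KMT2A gene, and HL60 from acute myeloid leukemia of promyelocytic type. Each is an established line, and its values describe that line and not the disease. No line has a second library, so no p-value is given, and differences are described by a fixed rule of size, with 95% Poisson intervals that cover counting error only.

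Aligned depth was 473, 678, 344 and 973 megabases in K562, THP-1, MOLM13 and HL60, or 11.9 to 33.6 footprints of the modal length of 29 bases per library in units of 1000000. The erythroid markers HBE1, HBZ, GATA1 and KLF1 were each called high in K562. Primary granule markers summed to 8243 scaled TPM in THP-1 and 9249 in HL60, against 32.1 in the MOLM13-labelled library and 0 in K562. The makeup of these sums differed: MPO had 38.6 in THP-1 and 6359 in HL60, whereas ELANE, AZU1, PRTN3 and CTSG were higher in THP-1. Monocytic markers summed to 3259 in THP-1 and 731 in HL60, against 43.8 in K562 and 31.2 in the MOLM13-labelled library. LYZ made up most of the THP-1 and HL60 sums. LYZ, CSF1R and FCER1G were higher in THP-1, whereas CD14 and ITGAM were higher in HL60. CD14 had 1.55 in THP-1 and 43.1 in HL60, and ITGAM had 6.99 and 15.5. The name of the file deposited for MOLM13 differs from the label. Of 4 markers of leukemias with a KMT2A rearrangement, that library listed FLT3 and MEIS1 at 0, whereas HOXA9 and HOXA10 had 29.5 and 16.2 scaled TPM. THP-1 had 1.83 and 0.304 for FLT3 and MEIS1, and 15.7 and 18.7 for HOXA9 and HOXA10. In K562 and HL60, FLT3 was listed at 0, MEIS1 had 1.81 and 0, and HOXA9 and HOXA10 had 1.65 to 3.05. The 6 T and B cell markers of the MOLM13-labelled library summed to 903, of which CD3D, a T cell receptor subunit, had 891. The other lines had sums of 4.21 to 53.4. Epithelial and fibroblast markers summed to 508 in K562, 64.2 in THP-1, 377 in the MOLM13-labelled library and 39.3 in HL60. The part of these markers in the results was not tested. Whether the label is right was not tested, and every value of that library depends on it. In these bulk samples fewer cells of a type and less RNA per cell cannot be told apart, nor can the amount of an RNA and the number of ribosomes on it, since footprints alone were used.

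Levels are given on 3 scales, and genes within a library are also compared per coding base. Scaled TPM is the deposited TPM, summed over a gene's transcripts and multiplied by 1 factor per library, and it divides signal by the length of the transcripts to which it was assigned. Normalized aligned bases, per 1000000 bases on nuclear protein-coding genes, are not divided by length and serve to compare 1 gene between lines. Divided by the length of a gene's coding region, they are called per coding base and serve to compare genes within a library. Signal on untranslated exons is included, so a value per coding base is not depth on the coding region. Coding coverage is the mean depth over exons that lie wholly inside the coding region, multiplied to the units of scaled TPM. It could be computed for 8 of the genes, because CDKN1B and CDKN2C have no exon wholly inside the coding region.

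In scaled TPM the 10 genes ran from steady to highly variable between lines. CDKN1B, CDK4 and CCND3 differed least over the lines, with a range of log2(scaled TPM + 1) of 0.48, 0.71 and 0.87, where the median over 12582 protein-coding genes was 1.57. Only 5.88% of those genes had a smaller range than CDKN1B. CCND2 had the widest range, 4.90, and 95.3% of genes had a smaller one. CCNE1 came next with 4.21, a range that rests on its listing at 0 in the MOLM13-labelled library, followed by CDKN2C with 3.60 and CCNE2 with 3.09.

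**Figure D1:**
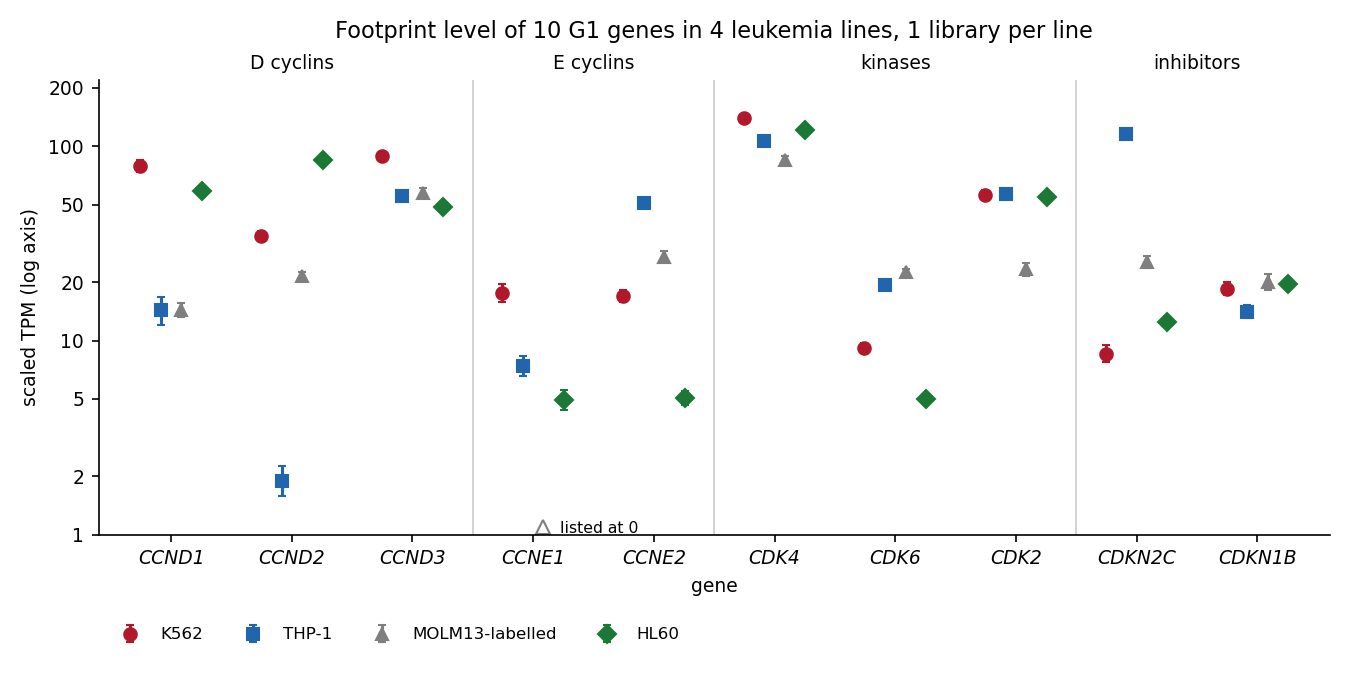
Scaled TPM (log axis) of the 10 genes in 4 leukemia lines, 1 library per line, grouped by role, with 95% Poisson intervals for counting error only. CCND2 at 1.90 and CDKN2C at 115 set THP-1 apart, CCNE1 is listed at 0 in the MOLM13-labelled library (open triangle), and CDK4, CCND3 and CDKN1B lie close together in all 4 lines.

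**Figure D2:**
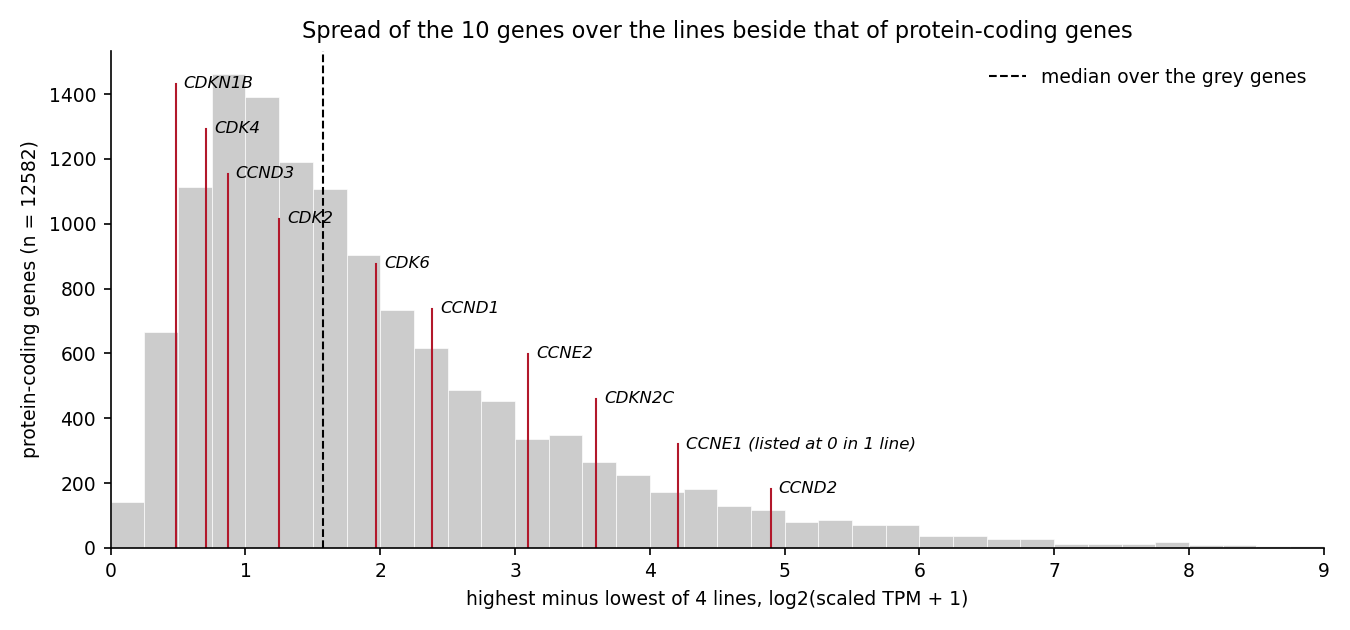
Number of protein-coding genes (grey, n = 12582) by the distance between their highest and lowest line in log2(scaled TPM + 1), with the 10 genes marked in red at arbitrary heights and the median of 1.57 dashed. CDKN1B (0.48) lies near the low end and CCND2 (4.90) far into the upper tail.

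A high call needed a log2(scaled TPM + 1) at least 2 above all 3 other lines. A low call applied when the value lay at least 2 below all of them, with at least 600 aligned bases where the signal was required. By this rule 3 of the 10 genes were called. In THP-1, 1 of 10 was high, CDKN2C, where 3.64% of eligible protein-coding genes were high. THP-1 also had 1 of 9 low, CCND2, against a background of 0.673%. In the MOLM13-labelled library, 1 of 10 was low, CCNE1, against 2.16%, and 0 of 9 were high, against 2.3%. K562 had 0 of 10 high (background 2.18%) and 0 of 9 low (5.05%), and HL60 had 0 of 10 high (1.68%) and 0 of 9 low (1.97%).

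On normalized aligned bases, which leave out transcript length and the factors per library of scaled TPM, CCND1, CCND2 and CCNE1 were called. CCND1 and CCND2 were low in THP-1, so that 2 of 9 were low where 1.61% of genes were. CCNE1 was again low in the MOLM13-labelled library, 1 of 10 against a background of 3.98%. CDKN2C in THP-1 fell just short of the distance of 2, at 1.94, and 0 of 10 genes were high there, against 5.19%. One transcript, of 2904 bases, held 91.2% to 100% of CDKN2C TPM in every line. The median difference of THP-1 from the MOLM13-labelled library over protein-coding genes was -0.24 on this scale and -0.04 in scaled TPM. The part of this offset in the lost call was not tested. K562 had 0 of 10 high (3.99%) and 0 of 9 low (8.36%), the MOLM13-labelled library 0 of 9 high (3.92%), and HL60 0 of 10 high (2.27%) and 0 of 9 low (4.64%).

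Between pairs of libraries, the same distance of 2 was passed by 0 to 3 of the 10 genes. In K562 against THP-1, 3 of 10 passed, where 20.1% of genes did, and in K562 against the MOLM13-labelled library 2 of 10, where 15.6% did. K562 against HL60 gave 0 of 10, with a background of 20%. THP-1 against the MOLM13-labelled library gave 3 of 10, with 17.9%, and THP-1 against HL60 gave 3 of 10, with 11.1%. The MOLM13-labelled library against HL60 gave 2 of 10, with 18.6%. On normalized aligned bases the counts were 3 of 10 (background 29.8%) for K562 against THP-1, 1 of 10 (23.1%) for K562 against the MOLM13-labelled library and 1 of 10 (30.8%) for K562 against HL60. They were 3 of 10 (26.9%) for THP-1 against the MOLM13-labelled library, 4 of 10 (16.7%) for THP-1 against HL60 and 3 of 10 (28.6%) for the MOLM13-labelled library against HL60. These 6 comparisons reuse the same 4 libraries and are not independent.

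Among the D cyclins, which link growth signals to the cell cycle, THP-1 had most of its signal on CCND3. CCND2, at chr12:4269771-4305353 on the plus strand (hg38, as in the files), had 34.6 scaled TPM in K562 cells, 1.90 (1.59 to 2.24) in THP-1, 21.5 in the MOLM13-labelled library and 85.3 (83.9 to 86.7) in HL60. The 4 intervals do not overlap, HL60 is highest and THP-1 lowest by far. In log2(scaled TPM + 1), THP-1 lay 4.90 below HL60, 3.62 below K562 and 2.96 below the MOLM13-labelled library. The THP-1 value rests on 135 footprint equivalents and the HL60 value on 14249.

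HL60 was highest and THP-1 lowest in CCND2 on both other scales as well. Normalized aligned bases were 109 in K562, 6.84 in THP-1, 159 in the MOLM13-labelled library and 487 in HL60, which here puts the MOLM13-labelled library above K562. Over the 3 wholly coding exons the scaled depth ran between 335 and 530.1 in HL60, 95.1 and 258 in the MOLM13-labelled library, 46.0 and 133 in K562, and 4.00 and 8.23 in THP-1. Every coding exon of CCND2 was thus lower in THP-1 than in any other line. The last exon of 5494 bases, of which 147 are coding, makes up 84.6% of the coding transcript and held 5.76% to 15.3% of its signal. TPM divides by the length of the transcripts to which signal was assigned, and these differed between lines. A 572-base transcript took 65.8% of CCND2 TPM in K562, 50.7% in THP-1, 19.9% in HL60 and 0% in the MOLM13-labelled library. Transcripts of 6352 to 6532 bases took the rest.

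CCND1, at chr11:69641156-69654474 on the plus strand, had 78.9 (73.4 to 84.7) scaled TPM in K562 cells, 14.3 (12.1 to 16.8) in THP-1, 14.4 (13.2 to 15.7) in the MOLM13-labelled library and 58.6 (56.0 to 61.3) in HL60. On this scale K562 and HL60 stand together above THP-1 and the MOLM13-labelled library, whose intervals overlap. On normalized aligned bases the split differed, with 61.7 (57.4 to 66.2) in K562, 7.43 (6.27 to 8.73) in THP-1, 55.6 (51.1 to 60.5) in the MOLM13-labelled library and 63.9 (61.1 to 66.9) in HL60. Now only THP-1 stands apart, and the intervals of K562 overlap those of both HL60 and the MOLM13-labelled library.

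Scaled TPM divides by the length of the transcripts to which the authors' tool assigned the CCND1 footprints, and these differed between lines. In K562 a 568-base transcript (ENST00000535993) took 56.0% of the gene's TPM and a 430-base one (ENST00000545484) took 40.3%. In HL60 these short transcripts took 66.7% and 19.6%. The full-length coding transcript of 4238 bases took 78.1% in the MOLM13-labelled library, against 3.74% in K562, 12.8% in HL60 and 0% in THP-1. Coding coverage, which sums the transcripts at each base, was 48.8 in K562, 6.75 in THP-1, 67.1 in the MOLM13-labelled library and 48.4 in HL60. The K562 level of CCND1, 5.47-fold above the MOLM13-labelled library in scaled TPM, lay below that library in coding coverage.

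**Figure D3:**
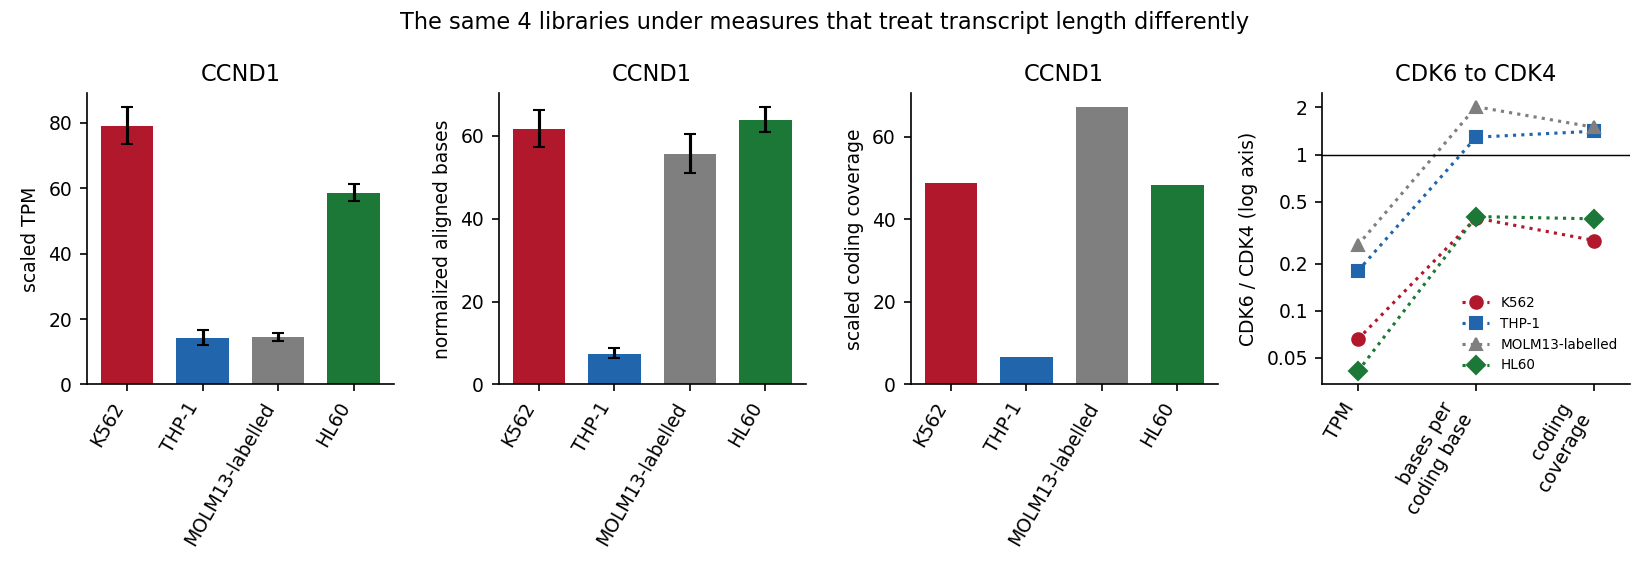
CCND1 in 4 lines as scaled TPM, normalized aligned bases (both with 95% Poisson intervals) and scaled coding coverage, and the ratio of CDK6 to CDK4 on 3 scales (log axis, line at 1), 1 library per line. CCND1 in the MOLM13-labelled library lies with THP-1 in TPM (14.4) and with K562 and HL60 on the other scales, and CDK6 exceeds CDK4 per coding base in THP-1 (1.29) and the MOLM13-labelled library (2.02).

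CCND3, at chr6:41934934-42050357 on the minus strand, was the steadiest D cyclin, with 89.3 scaled TPM in K562 cells, 55.7 in THP-1, 57.9 in the MOLM13-labelled library and 48.5 in HL60. In normalized aligned bases the levels were 237, 119, 145 and 104 in the same order of lines, and coding coverage was 187, 91.6, 132 and 97.7. K562 was highest on all 3 scales, and the MOLM13-labelled library came next on each.

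The D cyclins are close relatives, and footprints are short, so their coding sequences were compared for shared stretches. Aligned coding regions were 67.3% identical between CCND1 and CCND2, 61.8% between CCND1 and CCND3 and 67.5% between CCND2 and CCND3. The longest stretches without a difference were 23, 20 and 15 bases, all shorter than the modal footprint. The stretches shared by CCND1 with CCND2 and with CCND3 are printed with 18 flanking bases on both sides, 5′ to 3′ on the coding strand, from GENCODE release 29 on hg38. The identical run is in capitals.
CCND1, coding bases 163 to 221: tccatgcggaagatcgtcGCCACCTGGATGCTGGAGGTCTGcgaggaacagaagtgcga
CCND2, coding bases 160 to 218: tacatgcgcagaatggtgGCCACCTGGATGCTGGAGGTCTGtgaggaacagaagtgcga
CCND1, coding bases 220 to 275: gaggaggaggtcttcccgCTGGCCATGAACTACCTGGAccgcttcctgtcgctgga
CCND3, coding bases 220 to 275: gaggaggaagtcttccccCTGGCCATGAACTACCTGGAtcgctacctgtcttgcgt

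A footprint of 29 bases over these stretches includes at least 1 base that differs between the cyclins. Of the 29-base windows of the coding regions, 1 of 860 in CCND1 and 10 of 851 in CCND3 also occur in another annotated gene. For CCND2 this held for 692 of 842 windows, all shared with AC008012.1, a gene annotated over the same locus on the same strand, and 51 of them also with the pseudogene CCND2P1. AC008012.1 was listed at 0 in all 4 libraries. CCND2P1 had 729 aligned bases in HL60 and was listed at 0 in the others, whereas CCND2 itself had 413213 in HL60. How reads that match more than 1 gene were placed is not given in the sources used here. The gene LTO1 overlaps the last exon of CCND1 on the other strand, with 2636 to 5287 aligned bases per library, and counting used no strand option.

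Within each library the D cyclins were set side by side per coding base, since their transcripts differ in untranslated length. CCND3 held 58.1% of D cyclin signal in K562 and 89.3% in THP-1. In the MOLM13-labelled library CCND2 and CCND3 were near each other, at 44.6% and 40.1%, and in HL60 CCND2 held 74.6%. CCND1 held 5.50% in THP-1 and 9.59% to 15.3% in the other 3. Coding coverage gave the same leading cyclin in each library, with CCND3 at 59.4% in K562 and 87.3% in THP-1, and CCND2 at 44.5% in the MOLM13-labelled library and 75.5% in HL60. In scaled TPM the leading cyclin of the MOLM13-labelled library was CCND3 instead, at 61.7%, and in THP-1 CCND3 held 77.5% and CCND1 19.9%.

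**Figure D4:**
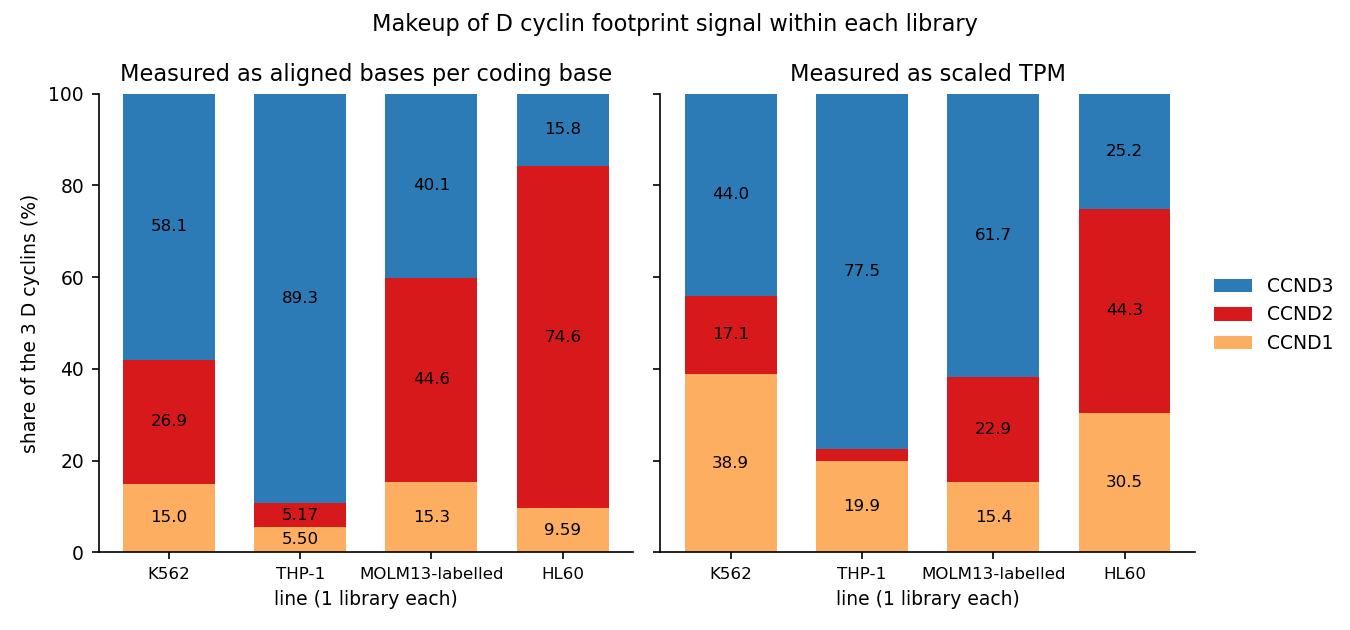
Share of each D cyclin in the summed signal of the 3 (percent), within each of 4 libraries, per coding base (left) and in scaled TPM (right). CCND3 fills 89.3% of the THP-1 bar and CCND2 74.6% of the HL60 bar per coding base, and CCND1 is larger in TPM than per coding base in K562, THP-1 and HL60.

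The E cyclins, which activate CDK2 at the end of G1, were highest in different lines, CCNE2 in THP-1 and CCNE1 in K562. CCNE2, at chr8:94879770-94896678 on the minus strand, had 16.9 scaled TPM in K562 cells, 50.9 (48.9 to 52.8) in THP-1, 27.1 in the MOLM13-labelled library and 5.07 (4.65 to 5.52) in HL60. No 2 intervals overlap, and THP-1 was highest. THP-1 lay 3.09 above HL60 in log2(scaled TPM + 1), which is 10.0-fold in scaled TPM. Coding coverage gave the same order, with 44.4 in K562, 108 in THP-1, 68.9 in the MOLM13-labelled library and 13.9 in HL60. The gene INTS8 overlaps the 3′ end of CCNE2 on the other strand, but the last exon of CCNE2 held only 3.62% to 5.10% of its signal.

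CCNE1, at chr19:29811991-29824312 on the plus strand, had 17.5 (15.7 to 19.5) scaled TPM in K562 cells, 7.42 (6.58 to 8.33) in THP-1 and 4.93 (4.38 to 5.53) in HL60, and was listed at 0 in the MOLM13-labelled library. These levels rest on 286 to 336 footprint equivalents per library. Normalized aligned bases were 27.3, 14.5 and 10.0 in K562, THP-1 and HL60. In the MOLM13-labelled library, 364 of the 8108 protein-coding genes with 600 or more aligned bases in all 3 other libraries were listed at 0, among them CDK7, a kinase that dividing cells use for CDK activation and transcription. A listing at 0 in that library is therefore not read as absence of CCNE1 footprints, and no fold is given.

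CCNE1 footprints were uneven along the transcript. In K562 its 9 wholly coding exons ran between 0 and 47.9 in scaled depth. In THP-1 the partly coding exon 2 had 63.0 and the coding exon 3 had 44.5, while the coding exons 4 to 11 had 2.18 to 8.74. In HL60 the coding exons ran between 0.584 and 21.7. No 29-base window of the CCNE1 or CCNE2 coding regions occurs in another annotated gene, and the longest run that both share is 20 bases.

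Per coding base CCNE2 exceeded CCNE1 in the 3 libraries with CCNE1 signal. The ratio of CCNE1 to CCNE2 was 0.412 in K562, 0.105 in THP-1 and 0.543 in HL60, and CCNE1 was listed at 0 in the MOLM13-labelled library. In scaled TPM they were level in K562, at 1.03 (0.908 to 1.18), and in HL60, at 0.973 (0.840 to 1.12). The intervals of those TPM ratios include 1.

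Of the kinases, CDK4 had the highest scaled TPM of all 10 genes in 3 libraries. CDK4, at chr12:57747727-57756013 on the minus strand, had 139.6 scaled TPM in K562 cells, 107 in THP-1, 85.0 in the MOLM13-labelled library and 121 in HL60. In THP-1 CDKN2C was higher. The range of CDK4 was 0.71 in log2(scaled TPM + 1) and 1.23 in log2(normalized aligned bases + 1), where 29.3% of genes had a smaller one and the median was 1.96. On that scale and in coding coverage K562 was apart. Without division by length, levels were 296 (286 to 306) in K562, 138 in THP-1, 134 in the MOLM13-labelled library and 126 in HL60, and coding coverage was 232 in K562, 70.4 in THP-1, 107 in the MOLM13-labelled library and 75.5 in HL60. The coding transcript of 1865 bases took 90.7% of CDK4 TPM in K562, 44.4% in THP-1, and 56.8% for the MOLM13-labelled library, and shorter ones of 769 to 952 bases took 55.6% in THP-1, 42.5% in the MOLM13-labelled library, and 59.3% and 29.1% in HL60.

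CDK4 footprints lay to an unequal degree on its untranslated exon 1, a stretch of 136 bases. The scaled depth of exon 1 was 144 in K562, 396 in THP-1, 131 in the MOLM13-labelled library and 235 in HL60. Relative to CDK4 coding exons this is 0.619, 5.62, 1.22 and 3.11 in the same order. The median of that ratio over protein-coding genes was 0.478 in K562 (n = 1117), 0.969 in THP-1 (n = 994), 0.443 in the MOLM13-labelled library (n = 1239) and 0.674 in HL60 (n = 902). In THP-1 95.7% of genes had a smaller ratio than CDK4 and in HL60 92.8%, against 56.2% in K562. In GENCODE release 29 the 5′ untranslated region of CDK4 has 366 bases and holds 4 ATG triplets, all followed by a stop codon in frame before the start codon. The 1865-base transcript measured here has a shorter 5′ untranslated region. How many of the triplets lie in its exon 1 was not examined. The gene TSPAN31 overlaps the other end of CDK4, on the opposite strand, with 3704 to 19191 aligned bases per library.

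CDK6, at chr7:92604921-92836573 on the minus strand, had 9.19 scaled TPM in K562 cells, 19.2 (18.6 to 19.9) in THP-1, 22.4 (21.6 to 23.3) in the MOLM13-labelled library and 4.98 (4.74 to 5.24) in HL60. THP-1 and the MOLM13-labelled library were above the other lines, and HL60 was lowest. Normalized aligned bases kept that order, with 125 in K562, 192 in THP-1, 292 in the MOLM13-labelled library and 54.3 in HL60. So did coding coverage, with 65.5, 99.3, 160.2 and 29.3.

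The place of CDK6 among the kinases depended on how transcript length was treated. Its last exon of 10366 bases, of which 144 are coding, makes up 89.3% of the transcript and held 13.5% of its signal in K562, 9.43% in THP-1, 15.0% in the MOLM13-labelled library and 7.0% in HL60. In scaled TPM the ratio of CDK6 to CDK4 was 0.0659 in K562, 0.180 in THP-1, 0.264 in the MOLM13-labelled library and 0.0411 in HL60, so CDK4 led everywhere. Per coding base the ratio was 0.393, 1.29, 2.02 and 0.401, and in coding coverage 0.282, 1.41, 1.49 and 0.388. On both of these scales CDK6 exceeded CDK4 in THP-1 and the MOLM13-labelled library and stayed below it in K562 and HL60.

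CDK4 and CDK6 are 63.5% identical over their aligned coding regions, and no 29-base coding window of either occurs in another gene. Their longest identical run, of 16 bases, is in capitals.
CDK4, coding bases 413 to 464: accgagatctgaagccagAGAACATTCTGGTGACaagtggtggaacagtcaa
CDK6, coding bases 428 to 479: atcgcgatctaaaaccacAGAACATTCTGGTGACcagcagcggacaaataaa

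CDK2, the partner of the E cyclins, at chr12:55966781-55972789 on the plus strand, had 56.5 (53.8 to 59.3) scaled TPM in K562 cells, 56.8 (53.9 to 59.7) in THP-1, 23.3 (21.4 to 25.2) in the MOLM13-labelled library and 54.9 (52.7 to 57.1) in HL60. Here 3 lines had overlapping intervals and the MOLM13-labelled library was below them, 2.44-fold under the highest. Normalized aligned bases were 133 in K562, 76.5 in THP-1, 61.7 in the MOLM13-labelled library and 84.6 in HL60. In coding coverage the MOLM13-labelled library had 39.3 and THP-1 had 34.3, against 65.7 in K562 and 61.4 in HL60. The low place of the MOLM13-labelled library in TPM was thus shared by THP-1 in coding coverage. The transcripts to which CDK2 TPM was assigned also differed in length, and the coding transcript used for the exons held none of it. A 2598-base transcript took 88.1% in the MOLM13-labelled library, 47.5% in K562, 4.01% in THP-1 and 0% in HL60. Shorter ones of 445 to 1802 bases took the rest.

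Of the inhibitors, CDKN2C carried the high call in THP-1. CDKN2C, at chr1:50960745-50974634 on the plus strand, had 8.56 (7.71 to 9.48) scaled TPM in K562 cells, 115 (112 to 118) in THP-1, 25.4 (23.7 to 27.2) in the MOLM13-labelled library and 12.4 (11.7 to 13.2) in HL60. THP-1 lay above every other line by a wide margin, and the MOLM13-labelled library came next. In log2(scaled TPM + 1), THP-1 was 2.14 above the MOLM13-labelled library, 3.12 above HL60 and 3.60 above K562. On the scale of normalized aligned bases, levels were 29.9 in K562, 324 in THP-1, 83.7 in the MOLM13-labelled library and 37.2 in HL60.

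Most CDKN2C footprints lay upstream of its coding region. The 2 wholly 5′ untranslated exons make up 69.7% of the transcript and held 78.4% of its signal in K562, 89.4% in THP-1, 88.0% in the MOLM13-labelled library and 90.4% in HL60. Nearly all of this was on exon 2, of 1964 bases, at chr1:50967936-50969899. The scaled depth of exon 2 was 9.92 in K562, 141 in THP-1, 33.1 in the MOLM13-labelled library and 15.7 in HL60. None of the 1936 windows of 29 bases in exon 2 occurs in another annotated gene. The 5′ untranslated region holds 13 ATG triplets, each followed by a stop codon in frame before the start codon. In GENCODE release 29 this region has 2034 bases, and the other 9 genes have 0 to 4 such triplets in regions of 104 to 716 bases. Some of those regions are longer than the ones measured here. CDK4 has 4 in 366 bases, and the counts are not divided by length.

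THP-1 was also highest on the exons that hold the coding region. Exon 3, of 140 bases with 129 coding, had a scaled depth of 15.9 (10.9 to 22.3) in K562, 106 (94.5 to 119) in THP-1, 8.34 (4.44 to 14.3) in the MOLM13-labelled library and 10.6 (7.77 to 14.1) in HL60. The THP-1 interval does not meet those of the other lines, which overlap one another. On exon 4, of 741 bases with 375 coding, the depth was 4.25 in K562, 24.3 in THP-1, 10.4 in the MOLM13-labelled library and 2.41 in HL60. THP-1 was 12.7-fold above the MOLM13-labelled library on exon 3, 4.27-fold on exon 2 and 2.33-fold on exon 4. Over exons 3 and 4 together the depth was 6.10 in K562, 37.3 in THP-1, 10.1 in the MOLM13-labelled library and 3.71 in HL60. The distance of THP-1 from the MOLM13-labelled library, which decides the high call, therefore differed between the exons. Over protein-coding genes the median ratio of 5′ untranslated to coding depth was also higher in THP-1 (0.969) than in that library (0.443). The part of this difference in the CDKN2C call was not tested.

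**Figure D5:**
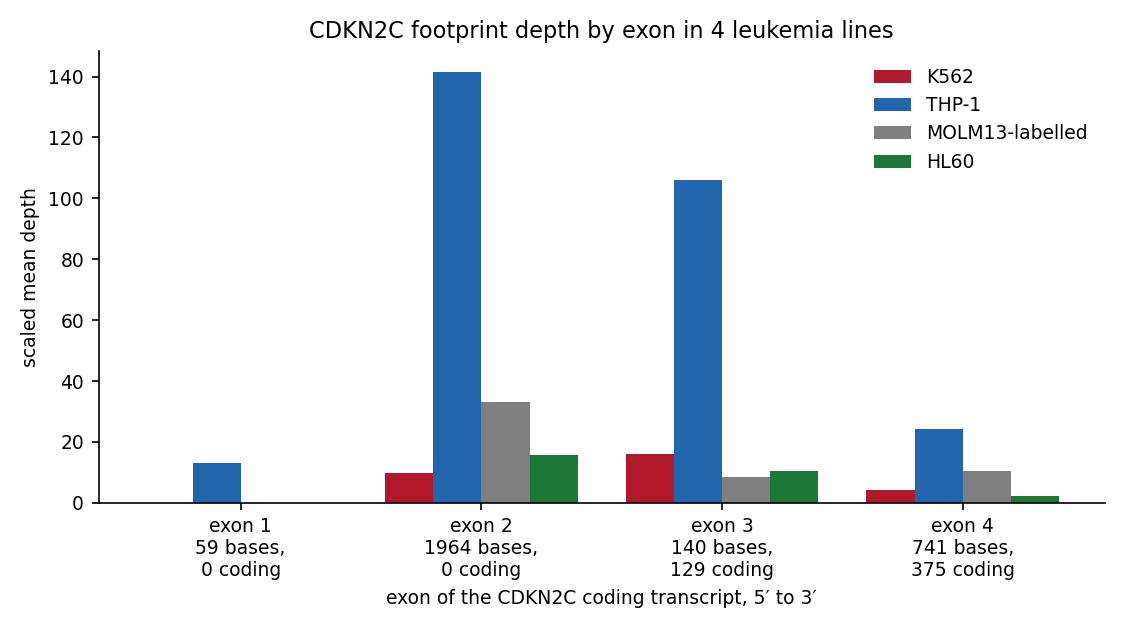
Scaled mean depth of footprints on the 4 exons of the CDKN2C coding transcript, 5′ to 3′, in 4 lines with 1 library each, with the length and the number of coding bases of each exon. THP-1 is highest on every exon, and exon 2, which is wholly untranslated, reaches 141 in THP-1 against 106 on exon 3.

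A short CDKN2C transcript of 995 bases (ENST00000371761), which starts downstream of exon 2, took 8.84% of the gene's TPM in THP-1 and 6.91% in HL60 and 0% in K562 and the MOLM13-labelled library. Because the lines differ in which CDKN2C transcript held signal, the 250 bases before the start of the long and the short transcript are printed, 5′ to 3′ on the plus strand, from RefSeq on GRCh38.p14. Exon 1, at the start of the long transcript, had a scaled depth of 13.2 in THP-1 and 0 in the other lines. A further CDKN2C promoter of the same source, at chr1:50968456-50968705 within exon 2, holds no CACGTG and is not printed. Capitals mark CACGTG, a palindrome bound by factors of the MYC family and others.
CDKN2C long transcript, chr1:50960495-50960744: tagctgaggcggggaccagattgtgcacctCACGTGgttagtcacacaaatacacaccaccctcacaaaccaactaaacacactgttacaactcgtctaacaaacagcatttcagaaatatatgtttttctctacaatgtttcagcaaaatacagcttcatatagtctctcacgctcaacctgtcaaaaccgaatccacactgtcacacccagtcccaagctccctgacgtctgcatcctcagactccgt
CDKN2C short transcript, chr1:50969995-50970244: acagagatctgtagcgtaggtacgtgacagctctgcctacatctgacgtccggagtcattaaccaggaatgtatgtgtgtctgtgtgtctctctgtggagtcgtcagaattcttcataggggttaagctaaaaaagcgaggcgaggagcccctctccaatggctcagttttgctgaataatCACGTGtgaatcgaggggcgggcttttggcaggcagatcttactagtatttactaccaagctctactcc

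Of the 10 genes, 6 matched the RefSeq promoter table: CCND3, CCNE1, CDK4, CDK6, CDKN1B and CDKN2C, with 11 promoters. CACGTG occurred in 3 of those promoters, 1 of CDK4 with 3 matches and 2 of CDKN2C with 1 match each. The further CDKN2C promoter, within exon 2, had none. Over all 35116 promoters of the same length, 6.345% held it. The E2F motifs TTTCCCGC, TTTCGCGC, TTTGCCGC and TTTGGCGC, on both strands, occurred in 0 of the 11 and in 2.788% of all promoters. A match of letters is a description and not a binding site.

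CDKN1B, at chr12:12715058-12722369 on the plus strand, was the steadiest of the 10. It had 18.5 (17.1 to 19.9) scaled TPM in K562 cells, 14.1 (13.0 to 15.2) in THP-1, 20.0 (18.2 to 22.0) in the MOLM13-labelled library and 19.4 (18.4 to 20.5) in HL60. The intervals of K562, the MOLM13-labelled library and HL60 overlap, and THP-1 lay slightly below, 1.43-fold under the highest. Normalized aligned bases were 53.5 in K562, 34.7 in THP-1, 44.4 in the MOLM13-labelled library and 44.3 in HL60. Exon 1, of 947 bases with 475 coding, had a scaled depth of 40.8 in K562, 33.5 in THP-1, 34.3 in the MOLM13-labelled library and 35.3 in HL60. Exon 2, of 130 bases with 119 coding, was less even, with 44.7, 13.0, 29.8 and 57.8 in the same order. The wholly untranslated last exon of 1334 bases held 0% to 3.02% of the signal.

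Ratios within a library do not depend on how libraries are scaled. The summed D cyclins relative to CDK4 plus CDK6, per coding base, were 1.03 in K562, 0.438 in THP-1, 0.920 in the MOLM13-labelled library and 3.89 in HL60. Coding coverage gave 1.06, 0.618, 1.34 and 5.69, so HL60 was highest and THP-1 lowest on both scales. In scaled TPM the spread was smaller, with 1.36 (1.31 to 1.42) in K562, 0.571 (0.545 to 0.597) in THP-1, 0.873 (0.835 to 0.913) in the MOLM13-labelled library and 1.52 (1.48 to 1.57) in HL60.

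For the inhibitors, the ratio of CDKN2C to CDK4 plus CDK6 in scaled TPM was 0.0575 (0.0516 to 0.0640) in K562, 0.915 (0.884 to 0.947) in THP-1, 0.237 (0.220 to 0.255) in the MOLM13-labelled library and 0.0983 (0.0920 to 0.105) in HL60. Per coding base the ratio was 0.131, 1.84, 0.370 and 0.380, so THP-1 was highest on both scales, whereas HL60 lay below the MOLM13-labelled library in scaled TPM alone. Most of the CDKN2C signal in this ratio is upstream of the coding region. The ratio of CDKN1B to CDK2 in scaled TPM was 0.327 in K562, 0.248 in THP-1, 0.862 in the MOLM13-labelled library and 0.354 in HL60. On aligned bases per coding base it was 0.606, 0.682, 1.08 and 0.786, and the MOLM13-labelled library was highest on both scales.

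A further 46 genes of the G1 to S transition, in 8 lists (pocket proteins, E2F and DP factors, other CDK inhibitors, enzymes acting on CDKs, ubiquitin ligase subunits, later cyclins with CDK1, kinase chaperones and proliferation markers), gave 1 high and 4 low calls in scaled TPM. Per line, 1.68% to 3.64% of all eligible protein-coding genes were called high and 0.673% to 5.05% low. The high call was CCNA1, a cyclin best known from testis, with 39.0 scaled TPM in THP-1 and listed at 0 in the other 3. Of the genes called low, TFDP2, a partner of E2F factors, had 0.753 scaled TPM in THP-1, against 58.2 in K562, 23.6 in the MOLM13-labelled library and 18.4 in HL60. CDKN1A, the inhibitor p21, had 1.27 in HL60, against 10.6 in K562, 9.10 in THP-1, and 14.5 for the MOLM13-labelled library.

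The other low calls rest on listings at 0. CDC25C, a phosphatase that activates CDK1, was listed at 0 in K562 and had 15.5 to 24.5 scaled TPM in the other 3. In K562, 792 of the 8531 protein-coding genes with 600 or more aligned bases in all other libraries were listed at 0, so this listing is not read as absence either. CDK7 was listed at 0 in the MOLM13-labelled library and had 22.1 to 59.3 elsewhere. The pocket proteins, the substrates of the kinases, had no call, and RB1 was widest among them, with 12.6 scaled TPM in K562 cells, 13.4 in THP-1, 30.5 in the MOLM13-labelled library and 13.1 in HL60.

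No ubiquitin ligase subunit, kinase chaperone or proliferation marker was called in scaled TPM. On normalized aligned bases FBXO31, a ubiquitin ligase subunit, was called low in K562, where it was listed at 0. The gene with the widest range among the ubiquitin ligase subunits was CKS1B, which helps the ligase recognise CDKN1B, with 7.54 scaled TPM in K562 cells, 0.776 in THP-1, 8.71 in the MOLM13-labelled library and 0.483 in HL60. Among the chaperones that fold CDK4 and other kinases it was HSP90AB1, with 898 to 2060.3 scaled TPM. Among the proliferation markers it was MKI67, with 23.8 in K562, 69.5 in THP-1, 41.8 in the MOLM13-labelled library and 47.2 in HL60.

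Each line was also set against the average of the other 3 in log2(scaled TPM + 1), and the median difference of the 46 genes was 0.19 in K562, -0.14 in THP-1, 0.20 in the MOLM13-labelled library and -0.12 in HL60. For the 10 G1 cyclins and kinases it was 0.43, 0.18, -0.00024 and 0.15. Over 11803 protein-coding genes it was -0.10, 0.05, 0.12 and -0.21. The summed level of the 10 genes was 469 scaled TPM in K562 cells, 442 in THP-1, 297 in the MOLM13-labelled library and 415 in HL60.

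For the 3 called genes, the protein-coding genes with the most similar profile over the 4 libraries were found by Euclidean distance between mean-centred log2(scaled TPM + 1) values. Nearest to CCND2 were AC068831.6 at a distance of 0.955, FLNA, an actin crosslinker, at 0.979 and DNAJC12, a co-chaperone, at 0.996. FLNA had 87.6 scaled TPM in K562 cells, 8.34 in THP-1, 96.1 in the MOLM13-labelled library and 147 in HL60. CCND2 had 3 genes within a distance of 1 among 8083 candidates, against 37 for CDKN2C.

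Nearest to CDKN2C were OTULINL at 0.0923, MGAT4A, a glycosyltransferase, at 0.241 and ATG10, an enzyme of autophagy, at 0.258. OTULINL had 1.36 scaled TPM in K562 cells, 30.1 in THP-1, 5.61 in the MOLM13-labelled library and 2.33 in HL60. Nearest to CCNE1, among 12546 candidates that may be listed at 0, were XYLB at 0.176, HECTD3, a ubiquitin ligase, at 0.190 and USP15, a deubiquitinase, at 0.317. XYLB and HECTD3 were also listed at 0 in the MOLM13-labelled library. With 4 points a profile, likeness of this kind is a description only.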

How the data were processed

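Footprint libraries of K562, THP-1, MOLM13 and HL60, 1 each, were used with their labels as groups. Per the labels' protocols, lysates held cycloheximide, footprints were made with an ARTseq kit and ribosomal RNA was depleted with Ribo-Zero. Per the submitters' processing notes, the tools were StringTie 2.1.5, STAR 2.7.8a, Bowtie2 2.4.2 and Trim Galore 0.6.6, with build hg38. Per the file headers, StringTie estimated GENCODE 37 transcripts, with no strand option. The deposited values, TPM, FPKM and coverage per transcript and exon, are estimates without read counts, and assignment of short fragments among transcripts affects TPM.

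Transcript TPM was summed per gene and multiplied by 1.20 (K562), 0.985 (THP-1), 0.891 (MOLM13) and 0.955 (HL60), factors taken over the 3751 genes that reach 10 TPM in each library. The pseudocount was 1. Aligned bases are the authors' coverage times transcript length, and divided by 29 they give the footprint equivalents behind the intervals. Coding regions and gene types came from GENCODE 29 on the same build, with coding regions for 18366 genes. No count model or test was applied, as no line has a replicate. On simulated data with 7677 genes, the rule for high calls recovered 98.0% of genes changed 8-fold and called 0% of genes changed 2-fold. These folds lie on either side of the 4-fold distance of the rule, so the outcome was largely set in advance. The simulation held counting error alone, for genes with at least 600 aligned bases in every library. It does not cover assignment among transcripts, listings at 0 or variation between libraries of a line. Named genes are the 10 members, from each list of other G1 to S genes those called in any line or else the widest, and the 3 nearest profiles of each called member. The members and lists were chosen with earlier results of these data known. Alternatives covered scaling, length, coding coverage, pseudocount, distance, the minimum of aligned bases and leaving out the MOLM13-labelled library. Work was done in Python 3.11.15 with Matplotlib 3.10.9, SciPy 1.17.1, pandas 2.3.3 and NumPy 2.4.6. Some items are not reported here.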

Additional observations from a re-analysis of the deposited data

How the results depend on the processing

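No paired analysis was possible because each line has 1 library. The number of the 10 genes called high was 0, in place of 1, with deposited TPM, TPM over protein-coding genes, aligned bases, coding coverage (which has no CDKN2C value), a pseudocount of 5 and a distance of 3, and it was 3 with a distance of 1. The number called low was 0, in place of 2, with a pseudocount of 5 and a distance of 3, 4 with a distance of 1 and 1 without the MOLM13-labelled library. The cause was not tested beyond these settings. For K562 against the MOLM13-labelled library, 1 gene in place of 2 passed with deposited TPM, aligned bases, coding coverage and a distance of 3, and 5 with a distance of 1. For K562 against HL60, 1 in place of 0 passed with TPM over protein-coding genes, aligned bases and coding coverage, and 3 with a distance of 1. A distance of 1 gave 5 in place of 3 for K562 against THP-1 and for THP-1 against HL60, and 6 in place of 2 for the MOLM13-labelled library against HL60. That comparison gave 4 with a pseudocount of 0.1 and 0 with a pseudocount of 5 or a distance of 3. THP-1 against the MOLM13-labelled library gave 0 in place of 3 with a pseudocount of 5 and 1 with a distance of 3. Of the 46 other genes, 3 in place of 1 were high with TPM over protein-coding genes, aligned bases, a pseudocount of 0.1 and without the MOLM13-labelled library, and 8 with a distance of 1. Low among them were 8 in place of 4 with aligned bases and a pseudocount of 0.1, and 10 with a distance of 1. In coding coverage FBXO31 and FBXO4 were low in K562. Without the MOLM13-labelled library, still in scaled TPM, E2F5 and CKS1B were high in K562. CDKN2A was low in THP-1 with deposited TPM, TPM over protein-coding genes, aligned bases and a pseudocount of 0.1. Aligned bases also gave E2F1 and CDKN1C high in K562, E2F5 low in THP-1 and E2F7 low in HL60. Of 28 ratios within libraries, 8 in place of 5 exceeded 1 per coding base, a scale added after the values were seen. The remaining 69 counts stayed within 1.5 times. The distances of the 3 called genes to the nearest line kept their sign. Of the differences between pairs of libraries, 8 of 60 had the other sign on aligned bases and 9 of 48 in coding coverage. Of these only CCND1 in K562 against the MOLM13-labelled library had passed the distance of 2, with 2.37 in scaled TPM and -0.45 in coding coverage. Others were CCND1 in the MOLM13-labelled library against HL60, with -1.95 in scaled TPM and 0.46 in coding coverage, and CCND2 in K562 against the MOLM13-labelled library, with 0.66 in scaled TPM and -0.55 on aligned bases. A gene at 600 aligned bases rests on 20.7 footprints, and no alternative can stand in for a second library.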
